A study of Mus musculus with 9 samples.

Results

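The genes described here are the receptors of the epidermal growth factor (EGF) family and the ligands that bind the EGF receptor, as expressed in a mouse prostate cancer cell line. They comprise 8 genes chosen by name, the receptor genes Egfr, Erbb2 and Erbb3 and the ligand genes Areg, Ereg, Hbegf, Tgfa and Btc, and all 8 were found among the 12842 genes of an RNA-seq table. The study addressed the role of Nsd2, a histone methyltransferase, in metastatic prostate cancer, and these libraries profiled the NPK cell line with Nsd2 silenced or a compound added. NPK cells were isolated from lung metastases of genetically engineered mice with prostate cancer and were grown in culture, and cells of all 3 groups are of this line. Each group had 3 libraries. Control cells are labelled as such. The study's methods name an shRNA against luciferase as the control of silencing and DMSO as the vehicle of the compound in a human line, and the labels do not say which of these, if either, the control libraries received. The shNsd2 cells carried an shRNA against Nsd2; the titles of their 3 libraries name Nsd2, whereas a second label names Nsd2, Nsd3 and Nsd4 in turn, and which shRNA a library received is not stated. The MCTP cells were treated with compounds labelled MCTP with the numbers 39, 40 and 41, a library for each number. The labels do not settle whether these are 3 compounds or a single compound whose number was counted up from library to library, as the second shNsd2 label may also have been, so the means, SDs and p-values of the MCTP group may span 3 replicates of a compound or a library of each of 3. The study calls number 39 a putative inhibitor of NSD2 and cautions that its action through NSD2 is not established, and the dose and duration used on these cells were not given in the sources used here.

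Receptors of this family sit in the cell membrane and act in pairs. Binding of a ligand to the EGF receptor (the product of Egfr) brings a pair of receptors together, switches on their kinase domains and passes the signal to the Ras and PI3K pathways. ErbB2 has no known ligand of its own and serves as the preferred partner of the others, while ErbB3 binds neuregulins, has little kinase activity and is a strong activator of PI3K. The ligands amphiregulin (Areg), epiregulin (Ereg), heparin-binding EGF-like growth factor (Hbegf), transforming growth factor alpha (Tgfa) and betacellulin (Btc) are made as precursors anchored in the membrane and are released by proteases of the ADAM family. Prostate epithelial and prostate cancer cells are known to make several of these ligands and to respond to them.

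The libraries were made from polyadenylated RNA, and the deposited value of a gene in a library is on a log2 scale after scaling by the submitters. Sequencing depth cannot be known from such values, and only the spread of replicates speaks to precision. The transform of this table is not named. For other RNA-seq samples, the study's methods describe variance stabilization with DESeq2, and the values here look like the product of such a step. If so, ratios, levels per length and shares taken from them are approximate; where a transform draws low values together, the fold change of a weakly expressed gene looks smaller than it is, and this was not tested here. The labels do not say that replicates came from separate cultures, so the p-values measure only the spread between these libraries, which may be technical. A gene was called different where limma, fitted to all genes tested in the 2 groups compared, gave a Benjamini-Hochberg adjusted p under 0.05. With 3 libraries against 3, the exact permutation test of a single gene cannot give a p below 0.1 and so cannot reach 0.05.

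A library of the MCTP group lay furthest from the others of its group. MCTP replicate 2, labelled with compound 40, differed from the mean of the other 2 MCTP libraries by a median of 0.13 over the genes tested, on the log2 scale and regardless of sign. The same distance was 0.05 for MCTP replicate 1 and 0.11 for MCTP replicate 3, and it was between 0.03 and 0.07 in the control and shNsd2 libraries. Without this library limma called 7384 genes instead of 4305 between MCTP and control cells, and 7781 instead of 5276 between shNsd2 and MCTP cells. The libraries also differed in how their values followed the GC content of transcripts. The Pearson correlation, across 11913 genes, between a library's deviation from the mean of the 9 libraries and GC content was 0.45 in MCTP replicate 1, -0.28 in MCTP replicate 2 and 0.55 in MCTP replicate 3. In the control libraries it was -0.59, -0.29 and -0.15, and in the shNsd2 libraries 0.10, 0.12 and -0.29. Genes are not independent replicates, and these values describe the libraries only. By this measure MCTP replicate 2 lay within the range of the control libraries, and MCTP replicates 1 and 3 lay above all control and shNsd2 libraries. Leaving out replicate 2 thus keeps the MCTP libraries that differ most from control in GC trend. Values without replicate 2 were not corrected for GC content. The fitted differences of the members that involve MCTP cells are therefore given with and without replicate 2. Counts of the lists of other genes are given both ways for MCTP against control cells, where such counts are printed. Between shNsd2 and MCTP cells such counts are given with all libraries only. The GC content of a transcript is given where the members' values moved with it.

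Nsd2, listed in the table under its earlier symbol Whsc1, had log2 values of 12.48, 12.43 and 12.42 in the control libraries. Its values were 11.56, 11.61 and 11.68 in the shNsd2 libraries and 12.15, 12.21 and 12.07 in the MCTP libraries. Both treated groups lay below the control group with no overlap, and the shNsd2 group lay below the MCTP group. On the linear scale Nsd2 mRNA stood at 0.563 ± 0.0247 (SD, n = 3) of the control mean in shNsd2 cells and at 0.813 ± 0.0391 (SD, n = 3) in MCTP cells. The silencing named in the titles was therefore visible in each of the 3 shNsd2 libraries, and it was partial.

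The label of prostate cancer cells was checked against marker lists. Of 10 epithelial markers, 8 had a row and 7 of these were above the filter value of 3.78 in control cells, with Krt8 the most abundant (16.28 ± 0.07, SD, n = 3), while the epithelial adhesion gene Epcam lay near the floor at 3.55. Of the markers of luminal prostate cells, Fkbp5 stood at 11.99, Hoxb13 at 10.28 and Tmprss2 at 6.89, and Pbsn was not analysed here. All 8 mesenchymal markers were above the filter value, led by Vim at 17.21. Among fibroblast, endothelial and immune markers, 4 of 7, 1 of 5 and 1 of 7 had a row. Of these, Dcn (2.33) and Cdh5 (3.50) lay under the filter value and Pdgfra (3.99) just above it, whereas Col3a1 (10.80), Col1a1 (8.20) and the macrophage gene Cd68 (6.53) lay above. In bulk RNA, fewer cells of a type and less RNA per cell cannot be told apart.

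Levels of different genes can be compared per length of transcript, here as the deposited log2 value minus the log2 of the length in kilobases of the principal transcript. On that scale Areg had the highest level of the 8 genes in control cells. Its libraries stood at 13.37, 13.55 and 13.56, with a mean of 13.49 ± 0.11 (SD, n = 3), and it ranked at the 98.6 percentile of all genes with a known length. Hbegf followed 4.36 log2 units lower, at 9.13 ± 0.11 (SD, n = 3). Ereg, at 8.96 ± 0.01 (SD, n = 3), was below Hbegf in every control library. Btc, at 8.89 ± 0.06 (SD, n = 3), and Erbb2, at 8.89 ± 0.03 (SD, n = 3), came next, and the libraries of Ereg and Btc overlapped, as did those of Btc and Erbb2, so these neighbours did not differ beyond their spread. Egfr, whose transcript of 10208 bases is the longest of the 8, stood at 8.11 ± 0.03 (SD, n = 3), at the 50.5 percentile of genes. Tgfa, at 6.82 ± 0.05 (SD, n = 3), and Erbb3, at 4.89 ± 0.08 (SD, n = 3), closed the order, each without overlap with the gene above it.

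Taking the length of all exons of a gene together in place of the principal transcript changed the middle of the order. Areg remained first and Egfr, Tgfa and Erbb3 remained last by that length, whereas Hbegf moved from place 2 to place 5, since its combined exons are 4834 bases long and its principal transcript 2375. Ereg, Erbb2 and Btc then followed Areg in that order, and Hbegf and Egfr overlapped. Areg was thus the most abundant member by either length, by more than 4 log2 units over the next.

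**Figure D1:**
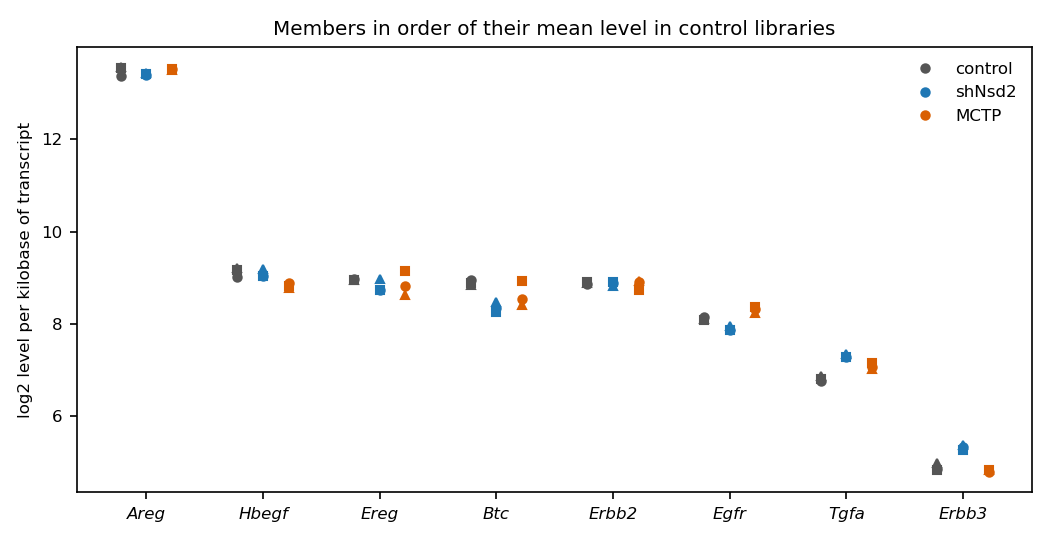
Level per kilobase of principal transcript (vertical axis, log2) of the 8 genes in the 9 libraries, ordered by the mean of the control libraries. Each point is a library; colours mark the group and circles, squares and triangles replicates 1, 2 and 3. Areg lies at 13.49 in control cells and Erbb3 at 4.89, and the order of groups differs from gene to gene.

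Expressed as shares of the summed level per length of the 5 ligands, Areg made up 86.7%, 87.9% and 87.9% in the control libraries. Its mean share was 87.5% ± 0.672 (SD, n = 3) in control, 88.1% ± 0.56 (SD, n = 3) in shNsd2 and 89.0% ± 1.05 (SD, n = 3) in MCTP cells. The remaining ligands each held a small part of the sum: Hbegf took 4.25%, Ereg 3.77%, Btc 3.62% and Tgfa 0.856% on average in control cells. These shares use the principal transcript, and by combined exons Hbegf lies below Ereg and Btc, so the order of the minor ligands depends on the length chosen. With Nsd2 silenced the mean share of Tgfa was 1.27% and that of Btc 2.65%. With MCTP the shares were 1.03% for Tgfa, 3.04% for Btc and 3.43% for Hbegf; that of Btc was 2.83%, 3.62% and 2.66% in replicates 1, 2 and 3, with replicate 2 the highest. Among the 3 receptors, Erbb2 made up 60.8% ± 0.934 (SD, n = 3) of the summed level per length in control cells, Egfr 35.4% ± 0.881 (SD, n = 3) and Erbb3 3.81% ± 0.197 (SD, n = 3). The share of Egfr was 31.9% ± 1.37 (SD, n = 3) in shNsd2 and 39.1% ± 2.53 (SD, n = 3) in MCTP cells (38.6%, 41.8% and 36.8% in replicates 1, 2 and 3), and that of Erbb3 was 5.34% ± 0.239 (SD, n = 3) and 3.49% ± 0.145 (SD, n = 3).

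Between shNsd2 and control cells, 4 of the 8 members were called different by limma, 2 higher (Tgfa and Erbb3) and 2 lower (Btc and Egfr). All genes gave a like share, 47.8% of the 12205 genes tested, of which 23.1% were higher and 24.8% lower, so the count of members was close to that of genes at large. The libraries of the 2 groups did not overlap for the same 4 members, beside 57.2% of all genes tested. Between MCTP and control cells, 3 members were called, Egfr and Tgfa higher and Hbegf lower. Against these 3 of 8 stood 35.2% of 12216 genes, of which 18.0% were higher and 17.2% lower, so this count too was close to that of all genes; 4 members had groups without overlap, beside 50.6% of genes. Compared directly, shNsd2 and MCTP cells differed in 4 members, Erbb3, Hbegf and Tgfa higher and Egfr lower in shNsd2 cells. Against these 4 of 8 stood 43.2% of 12217 genes, of which 20.6% were higher and 22.6% lower, which is again near the count of members, and 5 members had groups without overlap, beside 55.0% of genes. The counts for MCTP cells depended on single libraries, for members as for all genes. Without MCTP replicate 2, 5 members and 7384 of 12216 genes were called against control by limma, and without control replicate 2 none (0) of the members and 2162 genes were. Leaving out control replicate 1, control replicate 3 or MCTP replicate 1 left 1 member, beside 2366, 2456 and 2046 genes. Between shNsd2 and MCTP cells, 4 members and 7781 of 12217 genes were called without MCTP replicate 2. The median change of the 8 members was -0.06 with shNsd2, where that of all genes tested was 0.00, and -0.06 with MCTP, where that of all genes tested was -0.01.

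**Figure D2:**
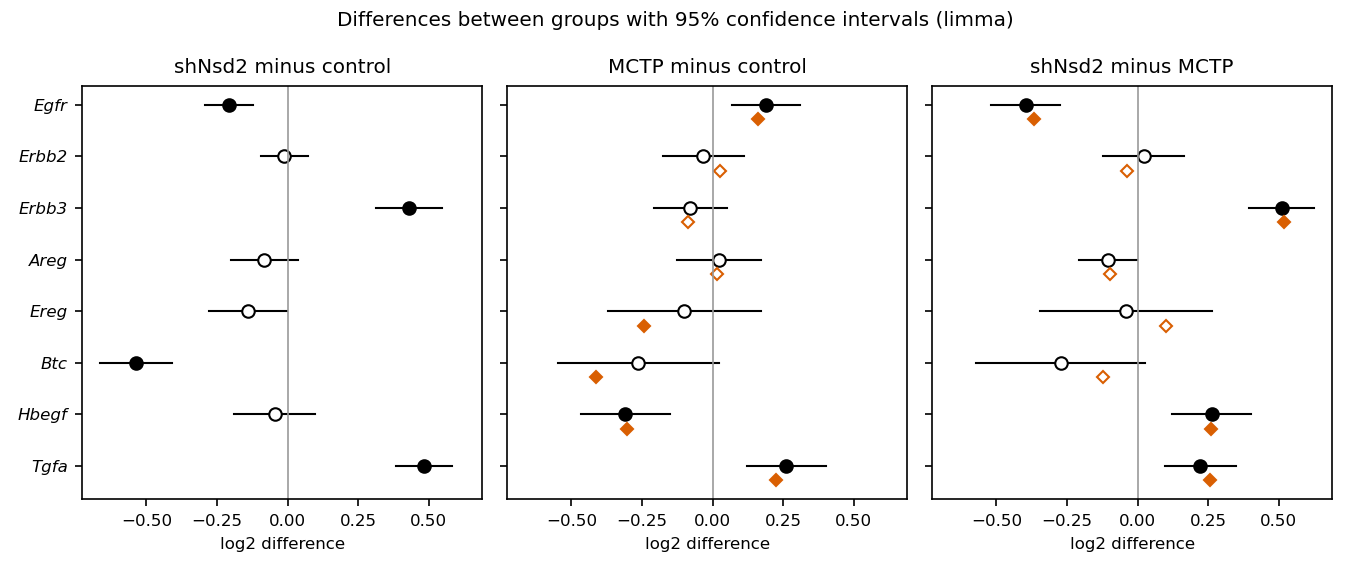
Difference between groups (horizontal axis, log2) of the 8 genes in the 3 comparisons, with 95% confidence intervals from limma. Filled symbols mark an adjusted p under 0.05, and diamonds give the difference without MCTP replicate 2. Egfr is at -0.21 with shNsd2 and at 0.19 with MCTP, and Btc moves from -0.26 to -0.41 with MCTP when that library is left out.

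Egfr, the gene of the EGF receptor itself, moved in opposite directions in the 2 treated groups. Its log2 values were 11.49, 11.43 and 11.47 in the control libraries, 11.23, 11.23 and 11.32 in the shNsd2 libraries, and 11.66, 11.71 and 11.58 in the MCTP libraries. The 3 groups did not overlap, with every shNsd2 library below and every MCTP library above every control library. Egfr fell with shNsd2 by a log2 fold change of -0.21 (SE 0.04; limma, adjusted p = 0.00224), to 0.866 of the control level, and this call held with each library left out. With MCTP it rose by 0.19 (SE 0.05; limma, adjusted p = 0.0273), or to 1.14 times the control level. Without MCTP replicate 2 the rise was 0.16 and remained called, while without control replicate 1, 2 or 3 or MCTP replicate 1 the adjusted p from limma lay between 0.0691 and 0.115. After a correction of each library for GC content the rise was 0.32 (limma, adjusted p = 3.18e-04, the lowest of the settings tried, of which the highest was 0.115). The fall with shNsd2 was smaller after the same correction, at -0.14, and remained called (limma, adjusted p = 0.00159). The transcript of Egfr has a GC content of 44.4%, where the median of genes tested is 50.4%. Set directly against each other, shNsd2 cells had less Egfr mRNA than MCTP cells by -0.40 (SE 0.05, 95% confidence interval -0.52 to -0.27; limma, adjusted p = 0.00113), a call kept with each library left out (-0.37 without MCTP replicate 2). In the annotation an antisense gene, Egfros, overlaps Egfr, and whether reads were counted by strand is not stated.

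Erbb2, the receptor without a known ligand, showed no called difference in any of the 3 comparisons. It stood at 11.19, 11.24 and 11.22 in control, at 11.22, 11.24 and 11.15 in shNsd2 and at 11.23, 11.07 and 11.25 in MCTP libraries, and the groups overlapped. The log2 fold change was -0.01 with shNsd2 (95% confidence interval -0.10 to 0.07) and -0.03 with MCTP (95% confidence interval -0.18 to 0.11). The direction of so small a value depended on the scaling: centring each library on its median turned them to 0.01 and 0.00, and without MCTP replicate 2 the MCTP value was 0.03. The direct difference was 0.02 (95% confidence interval -0.12 to 0.17), and -0.04 without MCTP replicate 2. Its transcript is the most GC-rich of the 8, at 57.3%, and with the GC correction the MCTP value was -0.13 (limma, adjusted p = 0.0141, where the settings ranged up to 0.995). Within a library, the log2 value of Egfr exceeded that of Erbb2 by 0.31, 0.19 and 0.25 in control cells. That excess was 0.01, -0.01 and 0.16 in shNsd2 libraries and 0.44, 0.64 and 0.33 in MCTP libraries, so the 3 groups were apart in this difference too.

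Erbb3, the receptor for neuregulins, was the least abundant receptor of the 3 and rose with Nsd2 silenced. Its log2 values were 7.45, 7.43 and 7.57 in control cells and 7.92, 7.86 and 7.96 in shNsd2 cells. Every shNsd2 library was above every control library. The log2 fold change was 0.43 (SE 0.05; limma, adjusted p = 2.36e-04), or 1.35 times the control level, and leaving out single libraries gave values from 0.40 to 0.47. In MCTP cells the values were 7.38, 7.42 and 7.41, just under the lowest control library, with a difference of -0.08 (95% confidence interval -0.21 to 0.05) that was not called (limma, adjusted p = 0.289), and -0.09 without MCTP replicate 2. The direct difference between shNsd2 and MCTP cells was 0.51 (SE 0.05; limma, adjusted p = 2.74e-04), the largest in size among the 8 members in that comparison, and 0.52 without MCTP replicate 2. Within a library, Egfr exceeded Erbb3 by a mean of 3.98 ± 0.08 (SD, n = 3) log2 units in control cells, 3.34 ± 0.04 (SD, n = 3) in shNsd2 and 4.25 ± 0.07 (SD, n = 3) in MCTP cells. The remaining receptor of the family, Erbb4, was not analysed here.

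Of the ligands, Areg, Ereg and Btc lie side by side on mouse chromosome 5, in the order Epgn, Ereg, Areg and Btc in GENCODE M21 (GRCm38), with the ligand gene Epgn at the near end. Areg is transcribed with Epgn and Ereg in the same orientation, and Btc runs the opposite way. Within a library, Areg exceeded Btc by a mean of 3.36 ± 0.17 (SD, n = 3) log2 units in control and 3.81 ± 0.08 (SD, n = 3) in shNsd2 cells without overlap, whereas the difference between Areg and Ereg overlapped between all groups. Areg, the most abundant ligand, binds the EGF receptor alone; its log2 values were 13.65, 13.83 and 13.84 in control, 13.67, 13.69 and 13.72 in shNsd2 and 13.81, 13.81 and 13.77 in MCTP libraries. The groups overlapped in both comparisons with control. The differences from control were -0.08 with shNsd2 (95% confidence interval -0.20 to 0.04; limma, adjusted p = 0.228) and 0.02 with MCTP (95% confidence interval -0.13 to 0.17; limma, adjusted p = 0.799), or 0.02 also without MCTP replicate 2. Control replicate 1 was the low library: without it the shNsd2 value was -0.14 and was called (limma, adjusted p = 0.00612, where the settings ranged up to 0.52), and the MCTP value turned to -0.04. Every shNsd2 library lay under every MCTP library. The direct difference was -0.105 (95% confidence interval -0.2076 to -0.0023, before adjustment for the number of genes) and was not called (limma, adjusted p = 0.0895). It was -0.10 without MCTP replicate 2, and with the GC correction it was called (limma, adjusted p = 0.0173, where the settings ranged up to 0.324).

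Ereg, whose product binds the EGF receptor and ErbB4, had closely spaced control libraries, at 11.01, 11.00 and 10.99. The shNsd2 libraries were at 10.79, 10.77 and 11.01, and the MCTP libraries at 10.86, 11.18 and 10.66. The spread between replicates was 0.01 (SD, n = 3) in control cells, 0.14 in shNsd2 and 0.26 in MCTP cells, and a library of each treated group reached or passed the control level. Neither difference was called (limma, adjusted p = 0.0848 for -0.14 with shNsd2 and 0.515 for -0.10 with MCTP). Both depended on a library. Without shNsd2 replicate 3 the first was -0.22 (limma, adjusted p = 0.0018, where the settings ranged up to 0.37), and without MCTP replicate 2 the second was -0.24 (limma, adjusted p = 0.00603, where they ranged up to 0.903). The Ereg transcript has the lowest GC content of the 8, at 39.2%, and after GC correction the MCTP value was 0.12 and not called. The direct difference between shNsd2 and MCTP cells was -0.04 (95% confidence interval -0.35 to 0.26). It turned to 0.10 without MCTP replicate 2 and was not called, and it was -0.24 with the GC correction (limma, adjusted p = 0.00304, where the settings ranged up to 0.99). The start of Ereg overlaps an antisense gene, Gm19610, in the annotation.

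Btc, whose product also binds both the EGF receptor and ErbB4, showed the largest fall among the members with Nsd2 silenced. Its log2 values were 10.48, 10.41 and 10.36 in the control libraries and 9.87, 9.79 and 9.99 in the shNsd2 libraries. The 2 groups were apart by more than the range of either. The log2 fold change was -0.54 (SE 0.06; limma, adjusted p = 1.10e-04), or 0.69 times the control level, between -0.59 and -0.49 with each library left out. In the MCTP libraries Btc stood at 10.07, 10.46 and 9.94, so that replicates 1 and 3 were under the control range while replicate 2 lay within it. The difference was -0.26 (SE 0.12) and was not called (limma, adjusted p = 0.126). Without MCTP replicate 2 it was -0.41 and was called (limma, adjusted p = 2.91e-04), and with the GC correction it was -0.05 (limma, adjusted p = 0.409, where the settings ranged from 2.91e-04 to 0.447). Btc has a GC content of 40.6%, close to that of Ereg, and in both genes MCTP replicate 2 was the highest and MCTP replicate 3 the lowest library of the group. Between shNsd2 and MCTP cells Btc differed by -0.27, which was not called (limma, adjusted p = 0.123); with the GC correction this was -0.44 (limma, adjusted p = 1.67e-04, where the settings ranged up to 0.286). Without MCTP replicate 2 the same difference was -0.12 and not called (limma, adjusted p = 0.135), and without MCTP replicate 3 it was -0.38 (limma, adjusted p = 0.0367).

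Since Btc fell with Nsd2 silenced and the difference of its neighbour Areg was not called, the 250 bases before the start of each are shown. Promoters of 5 of the 8 members (Egfr, Erbb2, Areg, Tgfa and Btc) were matched by symbol in a table of RefSeq sequences on GRCm38.p6; Erbb3, Ereg and Hbegf had no entry. Searched on both strands were TGACGTCA (the cAMP response element), GGGCGG (the GC box), TATAAA (the TATA box) and TGANTCA (the AP-1 site). Of 32851 promoters cut to the same 250 bases, 1.55% held the cAMP response element, 32.7% the GC box, 12.4% the TATA box and 6.75% the AP-1 site. Capitals mark the matches in Areg (chr5:91139349-91139598, + strand), which are TGACGTCA at -61, GGGCGG at -52 and TATAAA at -31 from the start; Btc (chr5:91402995-91403244, - strand) held none of the 4 in this window.
Areg: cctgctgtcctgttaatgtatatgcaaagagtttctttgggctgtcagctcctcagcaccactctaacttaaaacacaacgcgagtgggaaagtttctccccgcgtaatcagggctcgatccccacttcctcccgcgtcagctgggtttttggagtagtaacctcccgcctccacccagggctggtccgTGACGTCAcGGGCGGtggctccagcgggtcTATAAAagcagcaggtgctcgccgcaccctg
Btc: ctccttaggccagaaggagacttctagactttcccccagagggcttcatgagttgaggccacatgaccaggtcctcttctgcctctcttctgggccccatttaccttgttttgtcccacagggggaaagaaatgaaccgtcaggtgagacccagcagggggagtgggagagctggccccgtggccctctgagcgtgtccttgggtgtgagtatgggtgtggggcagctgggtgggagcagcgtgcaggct
In the same window Egfr held a GC box at -9 and Tgfa held 2, at -126 and -15, while Erbb2 held none of the 4 motifs. The GC content of the window was 57.2% for Areg, 59.6% for Btc, 60.8% for Egfr, 66.0% for Erbb2 and 69.2% for Tgfa. A match describes the letters only, and no binding was measured here.

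Hbegf, the ligand that also binds heparan sulfate and serves ErbB4, was called against control with MCTP and not with shNsd2. Its log2 values were 10.25, 10.42 and 10.46 in control, 10.28, 10.28 and 10.43 in shNsd2 and 10.13, 10.06 and 10.02 in MCTP libraries. All 3 MCTP libraries lay under all libraries of the other 2 groups. The fall with MCTP was -0.31 (SE 0.07; limma, adjusted p = 0.0124), to 0.807 of the control level, and it was -0.30 without MCTP replicate 2. Its call was lost without control replicate 2 (limma, adjusted p = 0.0595, the highest of the settings tried, the lowest being 0.00216) and without control replicate 3 (limma, adjusted p = 0.0551). The difference with shNsd2 was -0.05 (95% confidence interval -0.19 to 0.10), with overlap and no call (limma, adjusted p = 0.569). The direct comparison gave 0.26 more in shNsd2 than in MCTP cells (SE 0.06; limma, adjusted p = 0.011), a call kept with each library left out, and 0.26 also without MCTP replicate 2.

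Tgfa, whose product binds the EGF receptor, rose in both treated groups. It stood at 8.95, 8.99 and 9.05 in control, at 9.47, 9.45 and 9.52 in shNsd2 and at 9.25, 9.33 and 9.20 in MCTP libraries. The 3 groups did not overlap, and the MCTP libraries fell between the others. The log2 fold change was 0.48 with shNsd2 (SE 0.04; limma, adjusted p = 4.96e-05), or 1.40 times the control level, and stayed between 0.46 and 0.51 with each library left out. With MCTP it was 0.26 (SE 0.06; limma, adjusted p = 0.0143), or 1.20 times the control level, and 0.23 without MCTP replicate 2. That call was lost without MCTP replicate 1, control replicate 1 or control replicate 2, with adjusted p from limma of 0.0575, 0.0593 and 0.0627. Against MCTP cells, shNsd2 cells had more Tgfa mRNA by 0.22 (SE 0.05; limma, adjusted p = 0.0144), and by 0.26 without MCTP replicate 2; leaving out MCTP replicate 1 or shNsd2 replicate 1, 2 or 3 gave an adjusted p from limma between 0.0504 and 0.0659. The 2 comparisons with control share the control libraries. Within a library, Tgfa was lower than Btc by a mean of -1.42 ± 0.11 (SD, n = 3) log2 units in control cells, and this difference was -0.40 ± 0.07 (SD, n = 3) in shNsd2 and -0.90 ± 0.20 (SD, n = 3) in MCTP cells (-0.83, -1.13 and -0.74 in replicates 1, 2 and 3), with no overlap between the 3 groups.

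**Figure D3:**
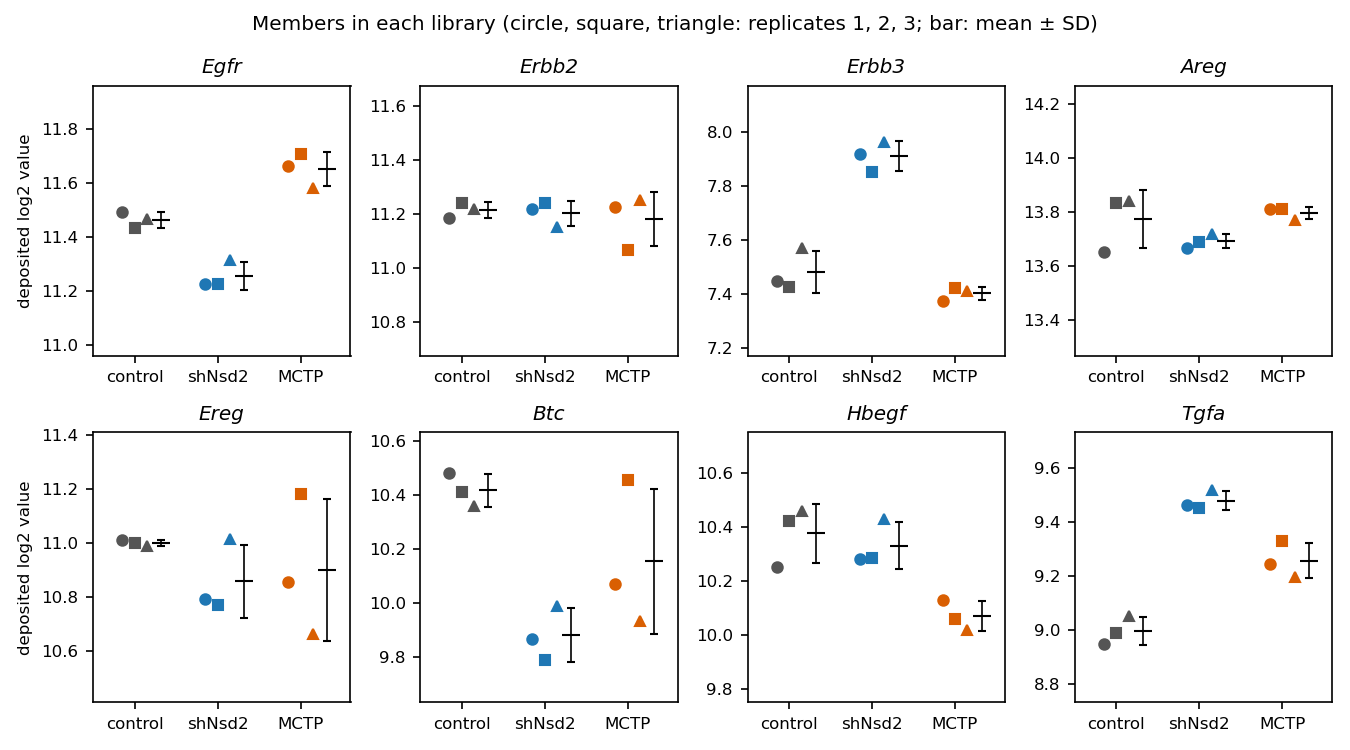
Deposited log2 value (vertical axis, each panel spanning 1 log2 unit) of the 8 genes in the libraries of the 3 groups. Circles, squares and triangles are replicates 1, 2 and 3, and the bar gives the mean ± SD of the 3 libraries. The MCTP square, replicate 2, stands at 10.46 for Btc and 11.18 for Ereg, above the 2 other MCTP libraries of each gene.

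The other ligands of the family were low or near the floor of the table. Egf itself had values between 3.29 and 3.36 in the 9 libraries, under the filter value of 3.78, and was not tested. Epgn, the gene of epigen, lay between 3.75 and 3.90, around the filter value. Its difference was called with MCTP (0.10, SE 0.03; limma, adjusted p = 0.0185), a call lost without MCTP replicate 1, control replicate 2 or control replicate 3 and without the variance trend, and not with shNsd2 (0.00; limma, adjusted p = 0.961). With the GC correction the MCTP value of Epgn was 0.31, and without MCTP replicate 2 it was 0.10. Nrg1, which encodes a ligand of ErbB3 and ErbB4, had log2 values of 6.61, 6.73 and 6.85 in control, 6.65, 6.69 and 6.60 in shNsd2 and 6.92, 7.07 and 6.96 in MCTP libraries. The MCTP libraries were above all others. Nrg1 rose with MCTP by 0.26 (SE 0.07; limma, adjusted p = 0.0281), a call lost without MCTP replicate 1, MCTP replicate 3, control replicate 1 or control replicate 2; it was 0.22 without MCTP replicate 2, and with shNsd2 Nrg1 differed from control by -0.08 (limma, adjusted p = 0.297). Between shNsd2 and MCTP cells the difference was -0.34 (SE 0.05; limma, adjusted p = 0.00209). Nrg2, Nrg3 and Nrg4 were not analysed here.

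For each member called against control, the genes with the most similar values over the 9 libraries were found by the root mean square of the log2 difference after centring on the control mean, among 12187 other genes. Egfr was closest to 2310030G06Rik (0.02) and March8 (0.03), both lower with shNsd2 and higher with MCTP. Erbb3 was closest to Tmem183a (0.05) and 2410002F23Rik (0.06), and Hbegf to Ern1 (0.05) and Pard3 (0.05). Tgfa lay nearest to Fat2 (0.05), a large cadherin, and to Jag2 (0.06), a Notch ligand. Btc was closest to Acadsb (0.06) and Ifi204 (0.06). These distances describe likeness of values only.

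The genes that act on ligand release were taken as a list of 14, made up of proteases, their partners and the inhibitors Timp3 and Reck. With shNsd2 1 of them rose and 10 fell, both inhibitors among the 10, with a median change of -0.26 where all genes had 0.00. Of all genes tested 23.1% rose and 24.8% fell with shNsd2. With MCTP 3 rose and 3 fell, beside 18.0% and 17.2% of all genes, with a median of -0.06 where all genes had -0.01. These counts were 3 and 4 without MCTP replicate 2, where 7384 of 12216 genes were called. With the GC correction they were 3 and 6, where 5614 of 11940 genes were called. Adam10, the main protease known to release betacellulin, had log2 values of 12.77, 12.55 and 12.50 in control and 11.96, 11.91 and 12.08 in shNsd2 libraries, and fell by -0.62 (SE 0.07; limma, adjusted p = 1.78e-04); with MCTP it was at 12.16, 12.59 and 12.03 and was not called (limma, adjusted p = 0.0933). Adam17, the main protease for Areg, Ereg, Hbegf and Tgfa, was singled out after its values were seen and fell by -0.14 with shNsd2 (limma, adjusted p = 0.047) and by -0.35 with MCTP (limma, adjusted p = 0.0188), and it was not among the genes tried under other settings. Timp3, an inhibitor of both proteases, moved in opposite directions, from 10.51, 10.58 and 10.51 in control to 9.92, 9.92 and 9.85 in shNsd2 and 11.80, 11.91 and 11.84 in MCTP libraries. Its change was -0.64 with shNsd2 (SE 0.04; limma, adjusted p = 6.72e-06) and 1.31 with MCTP (SE 0.05; limma, adjusted p = 1.76e-05), and the direct difference was -1.95 (limma, adjusted p = 6.65e-06). Adam9 fell by -0.59 with shNsd2 (limma, adjusted p = 2.97e-05) and by -0.37 with MCTP (limma, adjusted p = 0.0213). Adam19 fell by -0.29 with shNsd2 (limma, adjusted p = 0.00218) and by -0.63 with MCTP (limma, adjusted p = 7.07e-04). Frmd8, which stabilizes the ADAM17 complex at the cell surface, rose by 0.23 with shNsd2 (limma, adjusted p = 0.00271) and by 0.59 with MCTP (limma, adjusted p = 0.00178). Of these 6 changes, that of Adam9 with MCTP and those of Adam19 and Frmd8 with shNsd2 were not tried under other settings. Adam15 and Adam8 were lower in shNsd2 than in MCTP cells, by -0.54 (limma, adjusted p = 0.00152) and -0.44 (limma, adjusted p = 0.00137).

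Genes that restrain the receptors were taken as a list of 14. Of these receptor inhibitors, 1 rose and 6 fell with shNsd2 (median -0.05, all genes 0.00), and 1 rose and 6 fell with MCTP (median -0.21, all genes -0.01); without MCTP replicate 2 the latter counts were 3 and 11, with 7384 of 12216 genes called. Beside the 7 of 14 called in each comparison stood 47.8% of all genes with shNsd2, which is near the same share, and 35.2% with MCTP. With the GC correction 1 rose and 7 fell with MCTP, where 5614 of 11940 genes were called. Ubash3b, a phosphatase of the receptors, fell by -0.60 with shNsd2 (SE 0.04; limma, adjusted p = 7.76e-06) and by -0.53 with MCTP (SE 0.05; limma, adjusted p = 5.59e-04). Ptprj, another phosphatase that acts on the EGF receptor, fell by -0.61 with shNsd2 (limma, adjusted p = 1.26e-05) and by -0.32 with MCTP (limma, adjusted p = 0.00824). Cblb, a ubiquitin ligase that marks activated receptors for degradation, fell by -0.21 with shNsd2 (limma, adjusted p = 0.00268) and by -0.22 with MCTP (limma, adjusted p = 0.0249); the latter was not tried under other settings. Errfi1, a direct inhibitor of the EGF receptor kinase that is itself induced by EGF signalling, stood at 11.93, 12.03 and 12.11 in control, 12.17, 12.18 and 12.25 in shNsd2 and 11.76, 11.74 and 11.61 in MCTP libraries. The 3 groups did not overlap; Errfi1 fell with MCTP by -0.32 (limma, adjusted p = 0.00957) and was 0.50 higher in shNsd2 than in MCTP cells (limma, adjusted p = 5.21e-04). In that direct comparison Ptprk was lower by -0.46 (limma, adjusted p = 2.16e-04) and Socs4 higher by 0.55 (limma, adjusted p = 0.0239, a call lost without MCTP replicate 1 or shNsd2 replicate 1, 2 or 3; 0.34 with the GC correction).

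Genes transcribed in response to receptor signalling were measured as a list of 17. With shNsd2 5 rose and 7 fell (median -0.03, all genes 0.00). With MCTP 1 rose and 9 fell (median -0.19, all genes -0.01). Without MCTP replicate 2 the latter counts were 1 and 10, where 7384 of 12216 genes were called. With the GC correction they were 1 and 13, where 5614 of 11940 genes were called. Compared directly, 10 were higher and 2 lower in shNsd2 than in MCTP cells (median 0.19, all genes 0.01). The shares of all genes called were 47.8% with shNsd2, 35.2% with MCTP and 43.2% in the direct comparison. With shNsd2 Spry1, a feedback inhibitor of Ras signalling, fell by -0.52 (limma, adjusted p = 1.38e-05), Spred1 fell by -0.28 (limma, adjusted p = 0.0049), and Fosl1, a subunit of AP-1, rose by 0.30 (limma, adjusted p = 0.00128). With MCTP Spry4 fell by -0.59 (limma, adjusted p = 2.37e-04), Etv4 by -0.45 (limma, adjusted p = 0.00132) and Spred1 by -0.45 (limma, adjusted p = 0.0279). The Spred1 call with MCTP was lost without MCTP replicate 1, MCTP replicate 3 or any of control replicates 1 to 3, and its value was -0.25 with the GC correction. With all 9 libraries in a single fit the Spred1 call with shNsd2 was lost. Myc was higher in shNsd2 than in MCTP cells by 0.48 (limma, adjusted p = 2.69e-04) and Etv4 by 0.42 (limma, adjusted p = 0.00109), whereas Spry1 was lower by -0.38 (limma, adjusted p = 0.00134).

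Marker genes of epithelium and other cell types moved beside the members, and their part in the members' differences was not tested. Their counts below stand beside 47.8% of all genes called with shNsd2 and 35.2% with MCTP. Counts without MCTP replicate 2 stand beside 7384 of 12216 genes called between MCTP and control cells in that setting. Counts with the GC correction stand beside 5614 of 11940 genes called between the same groups. The log2 of the summed level of the 8 epithelial markers was 17.57, 17.75 and 17.70 in control, 17.52, 17.46 and 17.36 in shNsd2 and 17.94, 17.71 and 18.08 in MCTP libraries. With shNsd2 1 of 7 tested rose and 5 fell, among them Krt14 (0.78; limma, adjusted p = 2.22e-05), Krt15 (-1.20; limma, adjusted p = 5.65e-07) and Cldn4 (-0.39; limma, adjusted p = 2.38e-04). With MCTP 3 rose and 1 fell. Without MCTP replicate 2 it was 5 and 1, and with the GC correction 3 and 1. Krt14 rose with MCTP by 1.19 (limma, adjusted p = 2.74e-04) and Cdh1 fell by -0.34 (limma, adjusted p = 0.00325). Of the luminal markers, Fkbp5 fell with shNsd2 by -0.13 (limma, adjusted p = 0.00944) and with MCTP by -0.28 (limma, adjusted p = 0.00515), while Tmprss2 rose with MCTP by 0.31 (limma, adjusted p = 0.00493). Mesenchymal markers summed to 17.64, 17.71 and 17.71 in control, 17.49, 17.51 and 17.41 in shNsd2 and 17.95, 17.79 and 17.97 in MCTP libraries, with Vim the most abundant. With shNsd2 1 of the 8 was higher and 6 lower. With MCTP 1 was higher and 1 lower (median -0.08, all genes -0.01), or 1 and 3 without MCTP replicate 2 and 1 and 1 with the GC correction. The 2 called with MCTP, Vim and Zeb1, and Krt19 among the epithelial markers each lost the call without MCTP replicate 1, MCTP replicate 3 or any of control replicates 1 to 3. The 4 fibroblast markers summed to 11.12, 10.92 and 11.06 in control, 10.76, 10.75 and 10.75 in shNsd2 and 10.96, 10.90 and 10.81 in MCTP libraries, with Col3a1 the most abundant. Of the 3 tested, 1 rose and 2 fell with shNsd2. By limma none (0) rose and 1 fell with MCTP, with and without MCTP replicate 2 and with the GC correction. Col1a2, Lum and Pdgfrb were not analysed here. Cdh5, the endothelial gene measured, lay under the filter value and was not tested; its values were 3.49, 3.48 and 3.52 in control, 3.69, 3.66 and 3.71 in shNsd2 and 3.53, 3.47 and 3.51 in MCTP libraries, with the shNsd2 libraries above the others, and Pecam1, Kdr, Tek and Vwf were not analysed here. Cd68, the immune gene measured, stood at 6.50, 6.51 and 6.60 in control, 6.78, 6.78 and 6.72 in shNsd2 and 7.20, 7.15 and 7.44 in MCTP libraries and rose in both (limma, adjusted p = 0.00227 and 6.88e-04), while Ptprc, Lyz2, Adgre1, Cd3e and Csf1r were not analysed here.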

How the data were processed

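The authors deposited a table of log2 values for 12842 genes, made from poly-A RNA-seq libraries; the submitters' processing notes name bcl2fastq 1.8.4, TopHat, Cufflinks, DESeq, DESeq2 and the build mm9, and the transform of this table is not named, though the study's methods describe variance stabilization with DESeq2 for other samples. The 9 libraries were taken by their labels, and 3 other columns that match no sample were not used. A comparison tested the genes that exceeded 3.78, which is the median of the lowest 10% of values, in 3 or more of its 6 libraries. Testing used limma 3.58.1 (R 4.3.3) without further transformation, an empirical Bayes variance trend and the Benjamini-Hochberg method across the genes of that comparison. The procedure was tested on simulated data. Transcript lengths and GC content came from GENCODE M21 (GRCm38), in which 97.4% of identifiers were found. The members and the lists were chosen with earlier results of these data known. Genes named from a list were the up to 3 largest called changes per comparison without overlap between groups, beside the members, their 2 nearest genes, Nsd2 and the other receptors and ligands; those of the marker lists are given in part, and some listed genes are not reported here. Exact permutation tests were two-sided (scipy 1.17.1). The alternatives left out the filter or a single library, fitted all 9 libraries together, added a replicate block, or used quantile normalization, median centring, no variance trend and GC correction (lowess, span 0.3) with and without the block. Python 3.11.15 and matplotlib 3.10.9 made the figures.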

Additional observations from a re-analysis of the deposited data

Results flagged for a closer look

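Egfr changed in opposite directions in the 2 treated groups: it fell by a log2 fold change of -0.21 with shNsd2 and rose by 0.19 with MCTP, every shNsd2 library lay below and every MCTP library above the control libraries, and the direct difference between the treated groups was -0.40 (limma, adjusted p = 0.00113). The rise with MCTP lost its call without MCTP replicate 1 or any of control replicates 1 to 3 (limma, adjusted p from 0.0691 to 0.115), while the fall with shNsd2 and the direct difference kept theirs.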

How the results depend on the processing

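Of the 24 differences of single members (8 in 3 comparisons), 9 kept their direction and their side of the threshold in every setting tried, and over all settings 296 of 336 values did; 15 lost and 12 gained a call, and 13 changed sign. The sign changes were in values that were not called: Erbb2 turned with median centring to 0.0058 (shNsd2 minus control) and 0.0006 (MCTP minus control), with quantile normalization to -0.0078 (shNsd2 minus MCTP), and with libraries left out its ranges were -0.0296 to 0.0145, -0.0684 to 0.0253 and -0.0367 to 0.0569. Ereg turned to 0.12 with GC correction in MCTP minus control, with or without the replicate block, and with libraries left out ranged from -0.24 to 0.018 there and from -0.16 to 0.10 in shNsd2 minus MCTP. Areg ranged from -0.039 to 0.0558 in MCTP minus control. The cause was not tested. With libraries left out, genes called were 4340 to 6018 (shNsd2 minus control), 2046 to 7384 (MCTP minus control) and 3391 to 7781 (shNsd2 minus MCTP), and members called 4 to 5, 0 to 5 and 3 to 5. With GC correction 7 members and 6875 of 11935 genes were called in shNsd2 minus MCTP. Replicate numbers are shared between groups but did not consistently pair the libraries. The correlations of same-numbered deviations averaged -0.25, -0.19 and -0.36, against 0.16, 0.14 and 0.23 for other numbers. Single same-numbered pairs lay between -0.805 (replicate 3, shNsd2 and MCTP) and 0.612 (replicate 3, MCTP and control). With the replicate block 4515, 3399 and 3794 genes and 4, 2 and 3 members were called, with Egfr losing its call in MCTP minus control (limma, adjusted p = 0.0785, where the settings ranged from 3.18e-04 to 0.115) and Tgfa in shNsd2 minus MCTP (limma, adjusted p = 0.0698). On the deposited values the block changed no other call of a member; Fkbp5 lost its call in shNsd2 minus control, and Vim, Zeb1 and Krt19 lost theirs in MCTP minus control. Added to the GC correction, the block took the calls of Erbb2 in MCTP minus control (limma, adjusted p = 0.0584, where the settings ranged from 0.0141 to 0.995) and of Areg in shNsd2 minus MCTP (limma, adjusted p = 0.0897, from 0.0173 to 0.324), gave Ereg a call in shNsd2 minus control (limma, adjusted p = 0.0309, from 0.0018 to 0.37) and took that of Sos1 in MCTP minus control. Unknown depth leaves the replicate spread as the sole measure of precision.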

Other observations

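Adaptors that link the receptors to Ras and PI3K were mixed in direction. Of 20 tested, 6 rose and 5 fell with shNsd2 (median 0.03, all genes 0.00), and 4 rose and 3 fell with MCTP (median 0.00, all genes -0.01), or 7 and 6 without MCTP replicate 2, where 7384 of 12216 genes were called. Of all genes 47.8% were called with shNsd2 and 35.2% with MCTP, so these counts were near those of genes at large. With GC correction 5 rose and 4 fell with MCTP, where 5614 of 11940 genes were called. Vav2, an exchange factor recruited to active receptors, rose with shNsd2 by 0.44 (limma, adjusted p = 6.52e-05), while Pik3r1, a regulatory subunit of PI3K, and Nck2 fell by -0.32 (limma, adjusted p = 0.00645) and -0.27 (limma, adjusted p = 4.81e-04). With MCTP the Ras exchange factors Sos2 and Sos1 fell by -0.49 (limma, adjusted p = 0.00749) and -0.33 (limma, adjusted p = 0.0357), and the docking protein gene Gab1 rose by 0.28 (limma, adjusted p = 0.00682). The Sos1 call was lost without MCTP replicate 1, MCTP replicate 3 or any of control replicates 1 to 3, and its value was -0.12 with GC correction. In shNsd2 cells Sos1 and Sos2 were higher than in MCTP cells by 0.46 (limma, adjusted p = 0.0104, a call lost without MCTP replicate 1; 0.31 with GC correction) and 0.44 (limma, adjusted p = 0.00912), and Stat3 was lower by -0.39 (limma, adjusted p = 7.45e-04).

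Of 17 genes of receptor uptake and sorting, none (0) rose and 4 fell with shNsd2 by limma, beside 47.8% of all genes called, with a median of -0.02 where all genes had 0.00. Sh3kbp1, which links Cbl to the uptake machinery, fell by -0.37 with shNsd2 (limma, adjusted p = 1.05e-04) and by -0.37 with MCTP (limma, adjusted p = 0.00155), or -0.23 with GC correction. Stam fell by -0.25 (limma, adjusted p = 0.00205) and Stam2 by -0.17 (limma, adjusted p = 0.0031) with shNsd2. With MCTP 1 of 17 rose and 3 fell, beside 35.2% of all genes called. Without MCTP replicate 2 these counts were 2 and 9, where 7384 of 12216 genes were called. With GC correction they were 2 and 3, where 5614 of 11940 genes were called. Epn2 fell by -0.26 with MCTP (limma, adjusted p = 0.00727). Stam was lower with MCTP by -0.28 (limma, adjusted p = 0.0316), a call lost without MCTP replicate 1, MCTP replicate 3 or any of control replicates 1 to 3. With GC correction that value was -0.07 and not called, and the call for Stam2 with shNsd2 was lost as well.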
